A study of Homo sapiens with 4 samples.

Results

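The Fanconi anaemia genes followed here are FANCA, FANCB, FANCC, FANCD2, FANCE, FANCF, FANCG, FANCI, FANCL and FANCM. They were picked by gene name, and all 10 were found among the 58174 rows of the deposited expression table that carry a gene identifier. RNA was sequenced from 2 pancreatic cancer cell lines, SW1990, established from a metastasis of a pancreatic adenocarcinoma, and PANC-1, established from a primary pancreatic ductal carcinoma. SW1990 cells were grown in 1640 medium and PANC-1 cells in DMEM, both with 10% FBS, and cells of passage 14 to 16 were left unirradiated or received 10 Gy of X-rays. Each line and treatment was represented by 1 library, named SW1990 Ctrl, SW1990 Rad, PANC-1 Ctrl and PANC-1 Rad, and the time between irradiation and RNA extraction is not given in the sources used here. The 4 libraries held 17939210, 18388969, 23451153 and 20154644 counts in this order. With 1 library per line and treatment, the spread between cultures could not be measured within a line. The 95% intervals below of a gene's ratio between 2 libraries are exact Clopper-Pearson intervals of the split of its counts. Those of a difference between the lines, or of a change in the ratio of 2 genes, rest on 4 counts and a normal approximation. All of these intervals cover counting error only.

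The products of these genes repair DNA interstrand crosslinks, lesions that join both strands and block replication forks. FANCM, a DNA translocase, recognises stalled forks and helps to recruit the core complex, which holds FANCA, FANCB, FANCC, FANCE, FANCF, FANCG and FANCL. FANCL is the ubiquitin ligase of that complex and, with the conjugating enzyme UBE2T, attaches a single ubiquitin to FANCD2 and FANCI, which then close around DNA as a clamp. The deubiquitinase USP1 with its partner WDR48 removes the mark, while nucleases, translesion polymerases and recombination proteins such as BRCA1 and BRCA2 complete the repair. Many of these genes are transcribed most in cycling cells. Ionising radiation itself causes mainly breaks and base damage, and crosslinks between strands are a minor product.

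The labels were first checked against genes that mark the cells. KRT8 and KRT18, the keratins of simple epithelia, had at least 27779 and 19834 counts in every library, and KRT19, a ductal keratin, at least 5490. KRT7, also a keratin of ductal epithelia, was low, with 97 to 145 counts. EPCAM, an epithelial adhesion molecule, had 7348 and 7552 counts in the SW1990 libraries and 108 and 113 in the PANC-1 libraries. Likewise, CDH1 (E-cadherin) had 9906 and 14345 counts in SW1990 cells against 59 and 65 in PANC-1 cells, so the epithelial adhesion genes were low in PANC-1. Of the 9 markers of other cell types, 4 (CD3E, DCN, CPA1 and INS) had 0 counts in every library, PTPRC, PECAM1 and LUM had at most 2, PRSS1 at most 12, and VWF had the most, with 50 in SW1990 Rad. At these depths, 0 counts allow up to 0.168 CPM (counts scaled to the library total) in SW1990 Ctrl and 0.129 in PANC-1 Ctrl.

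The promoters of these genes were set side by side because cell cycle genes often carry E2F, CCAAT and CHR elements near their start. RefSeq windows of 250 bases before and 50 bases from the start site on (GRCh38.p14) were found for 9 of the 10 genes, with a pair for FANCC and none for FANCI. The windows printed here, 5′ to 3′ on the strand of the gene, are those of the gene with the lowest irradiated to unirradiated ratio in SW1990 (FANCG, chr9:35079893-35080192, minus strand), the gene with the lowest ratio in PANC-1 (FANCF, chr11:22625774-22626073, minus strand), the gene that differed most between the lines (FANCM, chr14:45135680-45135979, plus strand) and the only one with a match to the E2F-type letters (the outer FANCC start, chr9:95317660-95317959, minus strand). Capitals mark matches, on either strand, to TTTNGCGC (E2F-type), CCAAT or TTTGAA (CHR-type).
FANCG: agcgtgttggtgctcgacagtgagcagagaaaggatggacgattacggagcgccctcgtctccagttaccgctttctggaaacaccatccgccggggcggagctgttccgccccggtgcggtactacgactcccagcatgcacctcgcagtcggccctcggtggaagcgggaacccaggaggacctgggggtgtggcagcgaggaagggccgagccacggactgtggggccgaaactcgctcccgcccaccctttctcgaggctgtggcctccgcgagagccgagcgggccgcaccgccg
FANCF: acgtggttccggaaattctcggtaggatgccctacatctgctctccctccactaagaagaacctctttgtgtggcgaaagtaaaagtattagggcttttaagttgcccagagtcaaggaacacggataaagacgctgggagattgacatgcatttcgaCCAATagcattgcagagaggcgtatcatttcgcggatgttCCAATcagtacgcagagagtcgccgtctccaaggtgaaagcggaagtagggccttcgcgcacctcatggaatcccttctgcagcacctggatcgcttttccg
FANCM: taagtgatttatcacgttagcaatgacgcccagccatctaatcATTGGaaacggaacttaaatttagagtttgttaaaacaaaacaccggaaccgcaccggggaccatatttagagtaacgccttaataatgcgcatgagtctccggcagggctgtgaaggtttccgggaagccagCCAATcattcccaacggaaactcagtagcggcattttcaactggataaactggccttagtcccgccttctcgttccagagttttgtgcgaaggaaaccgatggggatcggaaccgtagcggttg
FANCC: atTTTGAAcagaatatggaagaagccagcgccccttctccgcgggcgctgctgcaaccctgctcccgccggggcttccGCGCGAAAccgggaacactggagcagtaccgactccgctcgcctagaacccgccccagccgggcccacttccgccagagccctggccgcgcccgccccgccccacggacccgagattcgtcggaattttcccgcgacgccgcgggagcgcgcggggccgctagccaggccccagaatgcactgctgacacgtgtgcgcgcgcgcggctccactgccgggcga
FANCG held none of the 3 motifs. FANCF held CCAAT at -92 to -88 and again at -52 to -48 from the start site. FANCM held it at -74 to -70 on the strand of the gene and at -207 to -203 on the other strand. The FANCC window held the E2F-type letters at -172 to -165 on the other strand and TTTGAA at -248 to -243.
Of the 10 windows, 3 had a CCAAT (FANCA, FANCF and FANCM), against 34.6% of all 35116 promoter windows of this length. The E2F-type letters were in 1 of 10 windows against 1.79% of all, and TTTGAA in 1 of 10 against 15.2%. For comparison, 27 windows of 25 S-phase genes held the E2F-type letters in 11 cases and CCAAT in 19. The median G+C content was 68.7% in the 10 windows and 58.7% in all, with 31 against 14 CpG per window. A match describes letters only, and the absence of one says nothing about the factor. The gene rows for FANCC and FANCF begin 109087 and 964 bases upstream of these start sites, so the windows are not the only places where transcription could begin.

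Every one of the 10 genes was expressed in every library. On the length-normalised FPKM scale (fragments per kilobase of transcript, scaled to library size), FANCI had the highest level, 68.4 in SW1990 Ctrl, 71.8 in SW1990 Rad, 46.5 in PANC-1 Ctrl and 53 in PANC-1 Rad. FANCA, a core complex subunit, followed with 57.1, 47.4, 22.6 and 38.4 in the same order of libraries. FANCG had a mean of 28.7 (22.6 to 37.1), FANCD2 24.5 (19.8 to 30.0), FANCL 18.2 (11.2 to 21.3) and FANCC 9.77 (6.87 to 11.9). The lowest were FANCM with a mean of 6.05 (2.65 to 8.44), FANCB with 5.36 (3.72 to 8.0), FANCE with 4.45 (4.03 to 5.26) and FANCF with 2.44 (1.96 to 2.73). FANCI was first and FANCF last in each of the 4 libraries. The ranges of neighbours in this order overlapped in every case but the last, FANCE over FANCF, so only that step exceeded the spread over libraries, although FANCL was 5th and FANCC 6th in each library as well. The mean of FANCI was 24.6 times that of FANCF. When counts were instead divided by the summed exon length in GENCODE 29, FANCI was still first but only 9.12 times the lowest gene, which was then FANCC, and FANCA moved from the 2nd to the 5th place. On that scale the clamp genes FANCI and FANCD2 held the first 2 places.

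**Figure D1:**
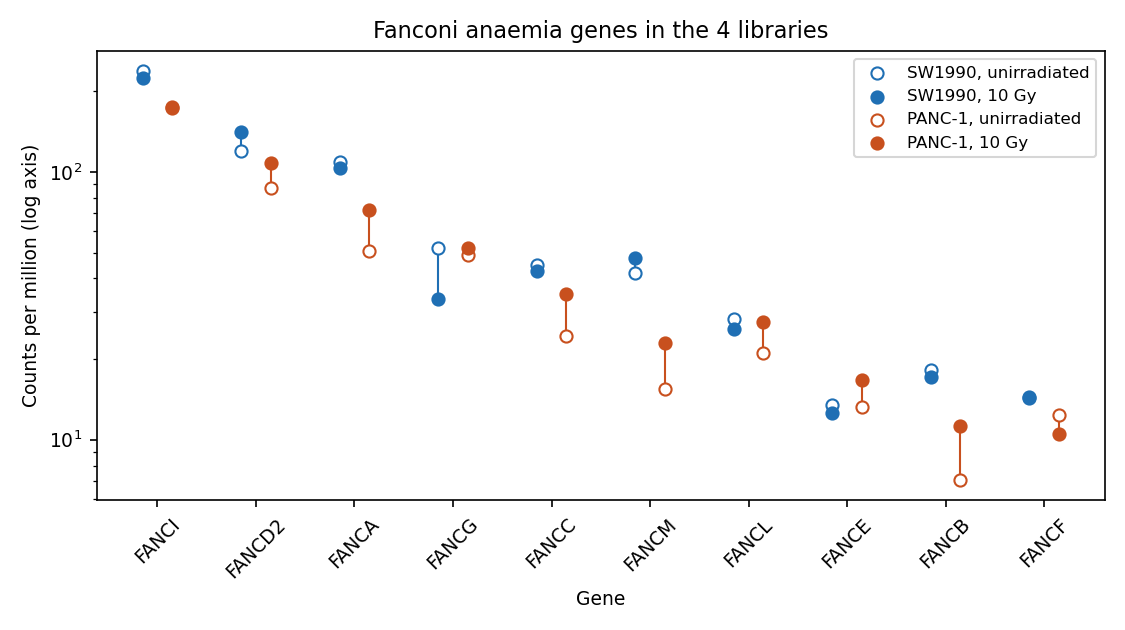
CPM (log axis, not corrected for length) of the 10 Fanconi anaemia genes in the 4 libraries, with open circles for unirradiated and filled circles for 10 Gy, blue for SW1990 and orange for PANC-1. FANCM, FANCB and FANCA lie highest above the PANC-1 Ctrl point in SW1990, and FANCG is the gene with the widest gap between the SW1990 libraries.

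In SW1990 cells, the Fanconi anaemia genes of the irradiated library lay close to those of the unirradiated one, with FANCG as the largest exception. None of the 10 differed over 2-fold, where 9.61% of 15731 genes did so, counting those at 1 FPKM or more in either library. Library sizes were scaled by TMM (trimmed mean of M values), and a ratio is irradiated over unirradiated. The median log2 ratio of the 10 genes was -0.04, against -0.01 for all genes tested, and 3 were higher and 7 lower, where 49.4% of all genes were higher.

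FANCG, a core complex subunit that binds FANCA, had 929 counts in SW1990 Ctrl and 612 in SW1990 Rad. It was 1.52-fold lower after irradiation (log2 ratio -0.61, 95% interval -0.76 to -0.46), the 1 gene of 10 past 1.5-fold, where 10.3% of all genes were lower and 10% higher by that much. Under DESeq2 size factors the log2 ratio of FANCG was -0.57, just short of 1.5-fold, and on the FPKM scale it was smaller, -0.37. FANCD2 went the other way, with 2141 counts in SW1990 Ctrl and 2574 in SW1990 Rad (log2 ratio 0.26, 0.18 to 0.34). FANCM had 746 and 873 counts (0.22, 0.08 to 0.36). These 2 were the genes whose interval lay above 0, and FANCG the 1 whose interval lay below, against 25.3% and 23.4% of all genes.

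The other 7 genes had intervals that included 0 in SW1990. FANCI, the partner of FANCD2, had 4251 and 4127 counts (log2 ratio -0.05, -0.11 to 0.01), and FANCA had 1940 and 1893 (-0.04, -0.13 to 0.05). The ligase gene FANCL had 506 and 474 counts (-0.10, -0.28 to 0.08). The remaining core complex genes gave ratios between -0.07 and 0.02, with 324 and 314 counts for FANCB, 800 and 783 for FANCC, 240 and 230 for FANCE, and 257 and 261 for FANCF. Their intervals reached no further than -0.33 to 0.27, so a change of 1.5-fold lay outside what counting error allows for these 2 libraries. On the FPKM scale FANCB was further from 0, with 8.0 in SW1990 Ctrl and 5.55 in SW1990 Rad (log2 ratio -0.53), as was FANCA with 57.1 and 47.4 (-0.27).

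In PANC-1 cells the Fanconi anaemia genes were mostly higher in the irradiated library. None differed over 2-fold, where 9.14% of 15159 genes did, but 8 of 10 had a ratio above 0 (50.3% of all genes). The median log2 ratio was 0.29 against 0.00 for all genes. It was 0.27 to 0.36 under the other scalings and on the FPKM scale, where the median of all genes tested ran from -0.01 to 0.07. In 7 of 10 genes the interval lay above 0 and in 1 below, against 27.7% and 28.6% of all genes.

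Of the core complex, FANCB had 165 counts in PANC-1 Ctrl and 226 in PANC-1 Rad, 1.52-fold higher (log2 ratio 0.60, 0.31 to 0.90). It was the 1 gene past 1.5-fold, where 11.8% of all genes were higher and 9.84% lower by that much. FANCC had 567 and 701 counts (0.46, 0.29 to 0.62), and FANCA had 1181 and 1444 (0.44, 0.33 to 0.55). The ligase gene FANCL had 493 and 551 (0.31, 0.13 to 0.49). FANCE, which bridges the core complex and FANCD2, had 310 and 335 counts (0.26, 0.03 to 0.49). These 5 core complex genes were thus all higher in the irradiated library, by 1.2- to 1.52-fold. FANCG had 1142 and 1039 counts (0.01, -0.11 to 0.14), close to the median of all genes. FANCF, an adaptor subunit, had 289 and 210 counts and was the 1 gene whose interval lay below 0 (-0.31, -0.57 to -0.05).

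The translocase gene FANCM had 362 counts in PANC-1 Ctrl and 461 in PANC-1 Rad (0.50, 0.30 to 0.70). FANCD2 had 2035 and 2155 (0.23, 0.14 to 0.32), which was close to its ratio in SW1990. FANCI had 4059 and 3501 counts (-0.06, -0.13 to 0.00). The 2 proteins of the clamp thus had unequal transcript ratios in both lines, higher for FANCD2 than for FANCI.

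**Figure D2:**
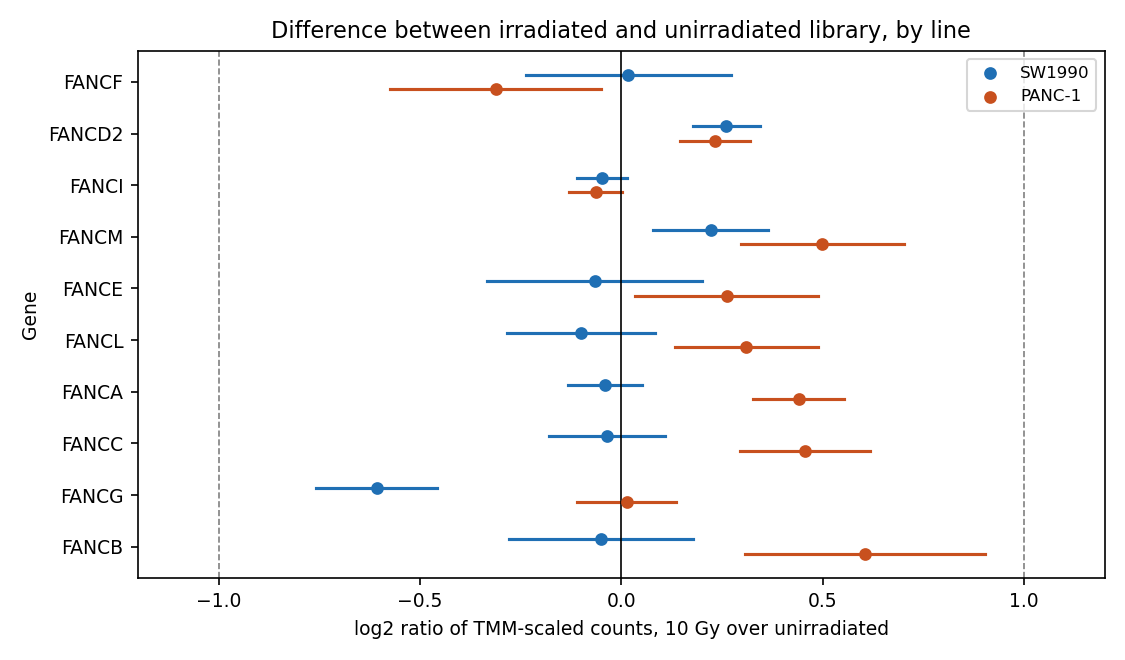
The log2 ratio of scaled counts, 10 Gy over unirradiated, for each gene in SW1990 (blue) and PANC-1 (orange), with horizontal lines for the 95% counting interval and dashed lines at 2-fold. FANCD2 and FANCI have nearly the same ratio in both lines, whereas FANCA, FANCB and FANCC lie near 0 in SW1990 and at 0.44 to 0.60 in PANC-1.

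The ratio in SW1990 minus the ratio in PANC-1 was below 0 for 7 of 10 genes, where it was below 0 for 50% of 13228 genes tested in both lines. It was below 0 for 9 of the 10 when scaled by total counts (59.8% of all genes) and for 8 from FPKM (57.8%). It was -0.65 (-1.02 to -0.29) for FANCB, -0.62 (-0.81 to -0.43) for FANCG, -0.49 (-0.71 to -0.28) for FANCC and -0.48 (-0.62 to -0.34) for FANCA. Smaller differences were found for FANCL (-0.41, -0.66 to -0.16), FANCE (-0.33, -0.67 to 0.01) and FANCM (-0.28, -0.52 to -0.03). FANCF had the opposite sign, 0.33 (-0.03 to 0.68), and FANCD2 and FANCI were at 0.03 and 0.02. The ratios had opposite signs in the 2 lines for 7 of the 10 genes, against 45.3% of all genes tested in both. These differences exceed counting error where the interval leaves out 0, but with 1 library for each line and treatment whether they exceed the spread between cultures was not tested.

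A single quasi-likelihood fit in edgeR took in all 4 libraries, with terms for the line and the treatment and 1 residual degree of freedom. For irradiated against unirradiated libraries, 0 of the 10 genes and 0 of 18180 genes (0%) passed an adjusted p of 0.05 (Benjamini-Hochberg). At an unadjusted p under 0.05 there were 833 genes, none of them a Fanconi anaemia gene. DESeq2 called 39 genes, and limma voom called 0 with 915 at an unadjusted p under 0.05. The lowest adjusted p among the 10 genes was 0.936 in edgeR's fit, shared by FANCM (log2 fold change 0.36, SE 0.18), FANCD2 (0.25, SE 0.14) and FANCG (-0.29, SE 0.20). The coefficient of variation common to all genes was 0.218, a spread that includes any true difference in response between the lines.

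Between the unirradiated lines, the Fanconi anaemia genes were on the whole higher in SW1990, most of all FANCM and FANCB. FANCM had 746 counts in SW1990 Ctrl and 362 in PANC-1 Ctrl, 2.35-fold higher in SW1990 after scaling (log2 ratio 1.23, 1.05 to 1.42). FANCB had 324 and 165 counts, 2.24-fold higher (1.16, 0.89 to 1.44). These 2 were past 2-fold, where 42% of 16626 genes were, so differences of this size were common between the lines. FANCA had a log2 ratio of 0.91 (0.80 to 1.01) and FANCC of 0.69 (0.53 to 0.84). FANCD2 (0.26), FANCI (0.26) and FANCL (0.23) were 1.17- to 1.2-fold higher in SW1990. FANCF (0.02), FANCG (-0.11) and FANCE (-0.18) had intervals that included 0. The median of the 10 genes was 0.26 against 0.01 for all genes tested, and 8 of 10 were higher in SW1990, where 50.3% of all genes were. Scaling by total counts moved the median of all genes by 0.20 in this comparison, and under it, as on the FPKM scale, all 10 genes were higher in SW1990 (57.3% and 57.6% of all genes) and 3 were past 2-fold, FANCA among them. From FPKM the median of the 10 genes was 0.67 against 0.21 for all genes, with larger log2 ratios for FANCA (1.34), FANCL (0.93) and FANCI (0.56) than from counts. Under DESeq2 size factors 7 were higher (49.2% of all genes).

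In the fit of 4 libraries, the effect of the line was past the threshold for FANCM (log2 fold change 1.09, SE 0.18, adjusted p = 0.0102) and FANCA (0.66, SE 0.17, adjusted p = 0.0370), each higher in both SW1990 libraries than in both PANC-1 libraries in counts per library total. FANCB missed it (0.83, SE 0.27, adjusted p = 0.0649), as did the other 7 genes, with adjusted p between 0.133 and 0.951. Of all genes, 43.6% passed. Without the filter on low counts the adjusted p of FANCA was 0.0689, and over the other alternatives it ran from 0.0324 to 0.0455. The lines were grown in different media, and line and medium cannot be told apart. The comparison of unirradiated lines and the PANC-1 ratios share the PANC-1 Ctrl library, in which 7 of the 10 genes (all but FANCE, FANCF and FANCG) had their lowest share of counts of the 4 libraries.

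The counts and FPKM of a gene did not always move together, and this bears on how large the PANC-1 ratios are. For FANCM in PANC-1, FPKM was 2.65 in PANC-1 Ctrl and 5.33 in PANC-1 Rad, a log2 ratio of 1.01 against 0.50 from counts, which takes it past 2-fold. FANCL had 11.2 and 20.7 FPKM (0.89 against 0.31 from counts), FANCA 22.6 and 38.4 (0.77 against 0.44) and FANCG 25.7 and 37.1 (0.53 against 0.01). FANCI turned from -0.06 from counts to 0.19 from FPKM. FANCB went the other way, at 0.17 on the FPKM scale against 0.60 from counts. On the FPKM scale 9 of the 10 Fanconi anaemia genes (all but FANCF) were higher in PANC-1 Rad. The median log2 ratio of all genes tested was then 0.07, and the share of them that were higher was not counted on that scale. With depth taken out, the CPM behind 1 FPKM unit was nearly the same in SW1990 Ctrl, SW1990 Rad, PANC-1 Ctrl and PANC-1 Rad in the median over genes tested (2.31, 2.30, 2.34 and 2.34), but not for each gene. It was 1.33, 1.32, 1.89 and 1.33 for FANCL, with PANC-1 Ctrl apart from the rest, and 5.37, 5.65, 5.86 and 4.32 for FANCM, with PANC-1 Rad the lowest. FPKM from StringTie depends on the transcripts assigned to a gene, and which transcripts were assigned was not tested.

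**Figure D3:**
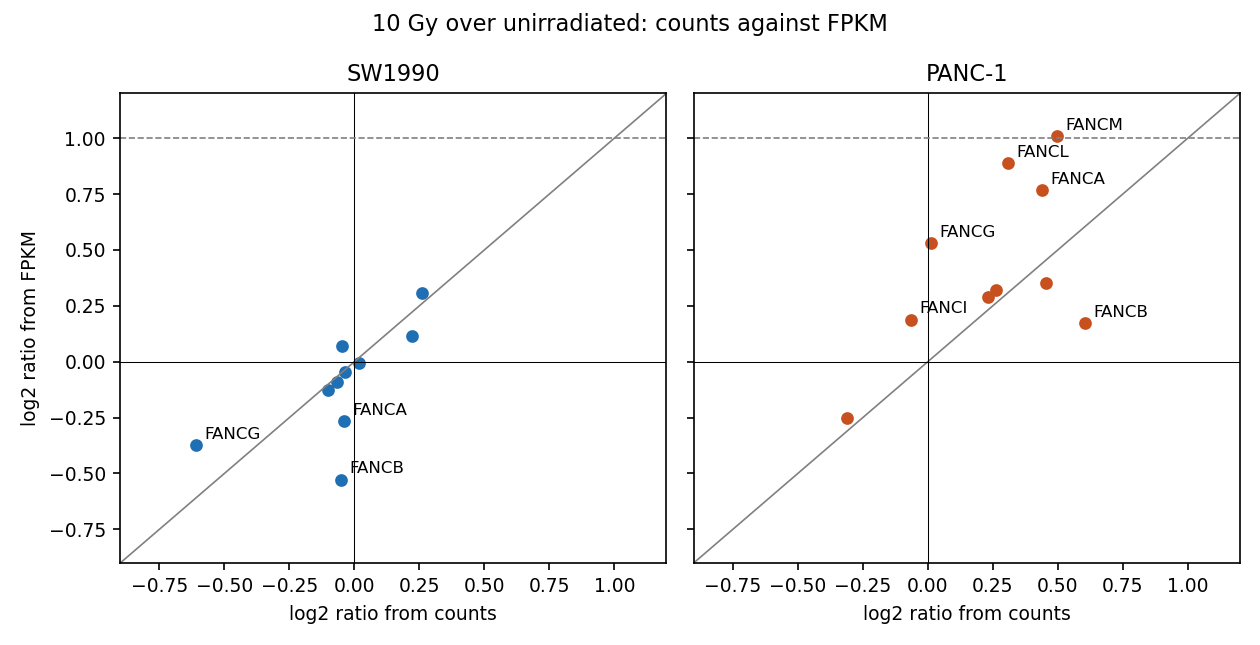
The log2 ratio, 10 Gy over unirradiated, of the 10 genes from counts (x axis) and from FPKM (y axis) in each line. The solid diagonal marks equal ratios, the dashed line marks 2-fold on the FPKM scale, and genes more than 0.2 apart on the 2 scales are named. In PANC-1, FANCM, FANCL, FANCA and FANCG lie above the diagonal, as does FANCI, whose sign differs between the scales, and FANCB lies below it.

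Some of the rows could share reads with other genes. FANCA overlaps 3355 bases of ZNF276, FANCI 12064 bases of POLG and FANCL 678 bases of VRK2, each on the opposite strand, and the sources used here do not say whether counting used the strand. POLG had 1391, 1449, 1443 and 1615 counts in the 4 libraries, fewer than FANCI in each, and ZNF276 had 783, 690, 470 and 480, fewer than FANCA in each. VRK2 had 768, 780, 1283 and 1010 counts, more than FANCL in each. On the same strand, FANCC overlaps 3 small rows with at most 22 counts each and FANCD2 1 with at most 3. The pseudogene FANCD2P2 held 22 to 25 counts per library and FANCD2OS, the antisense neighbour of FANCD2, 0. In GRCh38 coordinates the gene rows lie at chr16:89737549-89816657 (FANCA), chrX:14843407-14873069 (FANCB), chr9:95099054-95426796 (FANCC), chr3:10026414-10101930 (FANCD2), chr6:35452361-35467103 (FANCE), chr11:22622519-22626787 (FANCF), chr9:35073835-35080016 (FANCG), chr15:89243949-89317261 (FANCI), chr2:58159243-58241372 (FANCL) and chr14:45135940-45200890 (FANCM). All are annotated as protein-coding, and how reads were assigned to a row is not given in the sources used here.

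Over 41 other genes of the pathway in 6 lists, the median log2 ratio after 10 Gy was -0.01 in SW1990 and 0.03 in PANC-1, where that of the Fanconi anaemia genes was 0.29. None was past 1.5-fold in SW1990, and 1, REV3L, in PANC-1. In the fit of 4 libraries 0 of the 41 passed for treatment, and for the line 7 were higher and 8 lower in SW1990. These 15 of 41 stand against the 43.6% of all genes that passed for the line, so over the 41 genes together line calls were no more frequent than among all genes.

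Among 6 partners of the core complex, UBE2T had 257, 281, 695 and 591 counts in SW1990 Ctrl, SW1990 Rad, PANC-1 Ctrl and PANC-1 Rad, and CENPX, a histone-fold protein that binds FANCM with CENPS, had 458, 451, 550 and 479. After irradiation UBE2T had log2 ratios of 0.12 in SW1990 and -0.08 in PANC-1, and CENPX -0.03 and -0.05. The medians of the 6 genes were 0.20 in SW1990 (0.15 from FPKM) and -0.04 in PANC-1 (0.01 from FPKM). Between the unirradiated lines, all 6 were lower in SW1990 after TMM scaling (median -0.87), while by library total and from FPKM (median -0.53) 4 were lower and FAAP100 and CENPX slightly higher. In the fit, 3 passed for the line, UBE2T (log2 fold change -1.15, SE 0.19, adjusted p = 0.0115), FAAP24 and FAAP20. These 3 were lower in SW1990, where FANCA and FANCM were higher.

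Of 5 genes that reverse or regulate the clamp, USP1 had 2543 and 1972 counts in SW1990, a log2 ratio of -0.37 (-0.46 to -0.29), and 2453 and 2289 in PANC-1 (0.05, -0.03 to 0.13). UHRF1, which binds crosslinked DNA and helps to recruit FANCD2, had 4758 and 4898 counts in SW1990 (0.04) and 3683 and 3990 in PANC-1 (0.27, 0.20 to 0.33). The 5 genes had medians of 0.04 and 0.05 in the 2 lines, and 0 passed for the line.

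The 11 genes of incision and translesion synthesis had medians of -0.12 in SW1990 and -0.04 in PANC-1 (0.00 from FPKM). REV3L, the catalytic subunit of polymerase zeta, had 2895 and 2858 counts in SW1990 and 6162 and 3216 in PANC-1, 1.73-fold lower there after irradiation (log2 ratio -0.79, -0.85 to -0.73). Its partner MAD2L2 stood at -0.07 and -0.04. ERCC1, which forms a nuclease with ERCC4, had 600, 571, 2069 and 1566 counts, and its effect of the line was -1.51 (SE 0.16, adjusted p = 0.00322). SLX4, ERCC4 and MUS81 also passed, all lower in SW1990. SLX4 is the scaffold on which ERCC4 and MUS81 nucleases assemble.

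The recombination arm had 8 genes, with medians of 0.00 in SW1990 and -0.10 in PANC-1. BRCA1 had 1775 and 1783 counts in SW1990 (log2 ratio 0.00) and 1398 and 1068 in PANC-1 (-0.24, -0.36 to -0.12). RFWD3, a ubiquitin ligase that acts on RPA, had 3412 and 3770 counts in SW1990 (0.14, but -0.04 from FPKM) and 2529 and 3406 in PANC-1 (0.58, 0.50 to 0.65). For the line, BRCA1, BRCA2, BRIP1 and RAD51C passed, each higher in SW1990, with BRCA1 at a log2 fold change of 0.65 (SE 0.15, adjusted p = 0.0280).

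The 4 genes of the BLM dissolution complex had medians of -0.02 and 0.18. BLM, a helicase, had 1211 and 1207 counts in SW1990 and 1030 and 1010 in PANC-1 (0.12, -0.01 to 0.25), and TOP3A, its topoisomerase, was at 0.02 in SW1990 and 0.00 in PANC-1. RMI1 and RMI2 passed for the line, higher in SW1990. The 7 genes that signal to the clamp through ATR and RPA had medians of 0.08 and 0.16. TOPBP1, an activator of ATR, had 3506 and 3071 counts in SW1990 (-0.20, -0.27 to -0.13) and 4550 and 4122 in PANC-1 (0.01). From FPKM the SW1990 ratio of TOPBP1 turned to 0.15. RPA1, which coats single-stranded DNA, was at 0.08 in SW1990 and 0.24 in PANC-1. From FPKM the SW1990 medians of the dissolution and signalling lists turned to 0.05 and -0.07. In the signalling list, ATRIP was higher and RPA3 lower in SW1990 in the fit.

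In the ratios after 10 Gy, genes of DNA replication had medians near those of the Fanconi anaemia genes. So did the 4 genes of the dissolution complex (-0.02 in SW1990 and 0.18 in PANC-1). The 25 S-phase genes had a median log2 ratio of -0.09 in SW1990 (10 higher, 15 lower) and 0.23 in PANC-1 (21 higher, 4 lower), beside -0.04 and 0.29 for the Fanconi anaemia genes. Between the unirradiated lines the S-phase median was 0.69, further from 0 than the 0.26 of the Fanconi anaemia genes, and 23 of 25 were higher in SW1990. From FPKM the S-phase medians were larger, 1.15 between the unirradiated lines and 0.37 for the PANC-1 ratio. The 3 with the largest mean ratio were TK1 (0.44 in SW1990, 0.59 in PANC-1), CDC6 (0.43 and 0.43) and GINS4 (0.38 and 0.25), of which TK1 makes a nucleotide precursor and the others load or drive the replicative helicase. None of the 25 passed for treatment in the fit. The part of cell cycle phase in the ratios of the Fanconi anaemia genes was not tested. In RNA from whole cultures, fewer cells in a state and less RNA per cell cannot be told apart.

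The 12 mitotic genes were at 0.21 in SW1990 and 0.30 in PANC-1. BIRC5 (survivin) had log2 ratios of 0.48 and 0.76, CDK1, the kinase that drives mitotic entry, 0.22 and 0.54, and TOP2A, a topoisomerase, 0.35 and 0.37. Of the 12, 10 were higher in SW1990 Rad and 8 in PANC-1 Rad, beside 3 and 8 of the 10 Fanconi anaemia genes. No mitotic gene passed for treatment.

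The 20 p53 targets had medians of opposite sign in the lines. After TMM scaling all 20 were higher in SW1990 Rad (median log2 ratio 0.59), where 49.4% of all genes were. Of the 20, 17 had an interval above 0 (25.3% of all genes) and 4 were over 2-fold (9.61% in either direction). SESN1 was at 0.01 (-0.19 to 0.21) and slightly lower by library total (22.2 and 21.9 CPM). In PANC-1 the 18 genes tested had a median of -0.12. BTG2, an antiproliferative gene, had 51 and 525 counts in SW1990 and 32 and 12 in PANC-1. PLK2, a polo-like kinase, had 419 and 1346 counts in SW1990 and 1649 and 1629 in PANC-1, and FDXR, a mitochondrial reductase, had log2 ratios of 0.54 and 0.68. CDKN1A (p21), an inhibitor of cyclin-dependent kinases that lowers the expression of many cell cycle genes through RB family proteins, had 1229 and 4002 counts in SW1990 and 1282 and 782 in PANC-1. The part of these targets in the ratios of the Fanconi anaemia genes was not tested.

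Over both responses and the ratio of unirradiated lines, the genes of these lists whose 3 log2 ratios lay nearest to the medians of the Fanconi anaemia genes were MCM2 (Euclidean distance 0.159), CHEK1 (0.173), RRM1 (0.176), FAN1 (0.179) and DCLRE1B (0.206). MCM2 is a subunit of the replicative helicase, CHEK1 the kinase downstream of ATR, RRM1 the large subunit of ribonucleotide reductase, and FAN1 a nuclease that binds monoubiquitinated FANCD2. MCM2 had 5181 and 4804 counts in SW1990 and 4719 and 5663 in PANC-1. CHEK1 had 1193 and 1146 counts in SW1990 and 1020 and 1179 in PANC-1. The likeness rests on 4 libraries and describes them only.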

How the data were processed

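Per the labels, RNA was extracted with Trizol for an mRNA-seq kit, and the samples are also described as rRNA depleted. The submitters' processing notes list CASAVA 1.8, FastQC 0.11.2, Trimmomatic 0.36, HISAT2 2.0, StringTie 1.3.3b and DESeq2 1.12.4 on GRCh38. The table of 59263 rows gives, per library, the count of reads that the authors deposited without normalization, and the counting tool is not given in the sources used here. The FPKM that the authors deposited beside it are scaled to transcript length and library size. The 1089 rows that name no gene held 0.453% to 0.635% of the counts and were left out. Of the gene identifiers, 99.4% were found in GENCODE 29.

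Counts were scaled by TMM (edgeR 4.0.16, R 4.3.3) over genes with 1 FPKM or more in either library and called at a fold change over 2. The fit of 4 libraries used edgeR's quasi-likelihood test, filterByExpr and Benjamini-Hochberg adjustment over 18180 genes. On counts simulated with a coefficient of variation of 0.218, it recovered 180 of 200 genes given a 4-fold treatment change, with 14 false calls. The simulated lines did not differ in level or response, so the simulation does not check the line effect or a fit to lines that respond differently. Nothing says whether libraries came from separate cultures. The p-values of the fit are set against how far the 2 lines differ in their irradiated to unirradiated ratios, with information shared over genes. That spread may be technical and includes any true difference in response between the lines. DESeq2 1.42.0, limma 3.58.1, other scalings and filters were alternatives. Genes were named by a rule: the 10 Fanconi anaemia genes, of each pathway list those past 1.5-fold and the 2 with the highest mean FPKM, of each context list the 3 with the largest mean ratio, and the 5 nearest genes. Further genes (overlapping genes, CDKN1A and those listed for passing the line effect or turning with the scale) were named after their values were seen. The genes and lists were chosen with earlier results of these data known.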

Additional observations from a re-analysis of the deposited data

Results flagged for a closer look

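In 7 of the 10 genes the irradiated library was on opposite sides of the unirradiated one in the 2 lines, where 45.3% of 13228 genes tested in both lines had opposite signs. The log2 ratio in SW1990 minus that in PANC-1 was -0.65 for FANCB, -0.62 for FANCG, -0.49 for FANCC, -0.48 for FANCA, -0.41 for FANCL and -0.33 for FANCE, and 0.33 for FANCF. With 1 library per line and treatment, the difference was not tested against the spread between cultures. In 6 of the 7 genes (all but FANCG) the SW1990 interval included 0, and for FANCG the PANC-1 interval did, so no gene had both intervals on opposite sides of 0. The sign of FANCF in SW1990 (0.02) and that of FANCG in PANC-1 (0.01) changed with the scaling.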

How the results depend on the processing

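Among the values of the 10 Fanconi anaemia genes, no direction with an interval that excluded 0 turned under another scaling or from FPKM. From FPKM it did turn for some other genes, among them TOPBP1, RFWD3 and CCNB1 in SW1990, and FAAP100 and PALB2 between the lines. It also turned for some ratios between the 10 genes, given with them. The sign changed in 3 of 40 values in SW1990, 3 in PANC-1 and 5 between the unirradiated lines, all of FANCE, FANCF, FANCG or FANCI, and in 3 of 40 differences between the lines (FANCD2 and FANCI). At 1.5-fold in place of 2-fold, 1 Fanconi anaemia gene and 3192 genes in all were past the limit in SW1990, and 1 and 3287 in PANC-1. The gene in SW1990, FANCG, fell short of 1.5-fold under DESeq2 size factors (log2 ratio -0.57) and from FPKM (-0.37). Without the filter on low values, 7956 and 7909 genes were past 2-fold. With the filter kept, asking also for an interval that excludes 0 left 1002 of 1512 genes in SW1990 and 1006 of 1386 in PANC-1. FPKM ratios put 1 gene (FANCM) past 2-fold in PANC-1. Of the 41 pathway genes, FPKM ratios put 1 past 1.5-fold in SW1990 and 4 in PANC-1, and total counts 3 in PANC-1. DESeq2 called 39 genes for treatment, and gave no adjusted p for 4 of the 10 genes. Without a filter the line effect held for 1 Fanconi anaemia gene, because FANCA (log2 fold change 0.66) no longer passed when 30227 genes were tested. The highest over lowest mean level was 9.12 per kilobase of exon against 24.6 by FPKM. The labels give no replicate numbers, and the fit of 4 libraries compares irradiated with unirradiated libraries within each line through its term for the line. Leaving out a library leaves no residual degree of freedom, and the treatment effect is then the ratio of the complete line, given above.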

Other observations

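The ratio of 2 genes within a library needs no scaling between libraries. FANCI had 1.99 counts per FANCD2 count in both SW1990 Ctrl and PANC-1 Ctrl, 1.60 in SW1990 Rad and 1.62 in PANC-1 Rad. The log2 change was -0.31 (95% counting interval -0.41 to -0.21) in SW1990 and -0.30 (-0.41 to -0.19) in PANC-1. From FPKM it was smaller, -0.23 and -0.10. This pair was chosen after its values were seen. Of the 45 pairs among the 10 genes, 8 moved alike in SW1990 and PANC-1 with neither interval including 0, and 4 moved in opposite directions. The share among pairs of all genes was not counted, so whether these counts are unusual was not tested. Of the 8, FANCG stood lower against its partner in 6, those with FANCA, FANCB, FANCC, FANCD2, FANCL and FANCM. In PANC-1 the log2 ratio of FANCG itself was 0.01, and its 6 partners were higher after irradiation. From FPKM, FANCG still stood lower in both lines against FANCA, FANCL and FANCM. The sign turned in both lines for FANCB and in PANC-1 for FANCC and FANCD2. The change of FANCB over FANCD2, among the 4 opposite pairs, turned in PANC-1 from 0.37 to -0.12 from FPKM. It then had the direction seen in SW1990 (-0.83 from FPKM). FANCB over FANCI also turned in PANC-1, from 0.67 to -0.02. The pairs share genes and are not independent.

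Summed over the 10 genes, the libraries held 12134 counts in SW1990 Ctrl, 12141 in SW1990 Rad, 10603 in PANC-1 Ctrl and 10623 in PANC-1 Rad. In counts per library total, scaled to CPM, these are 680, 663, 455 and 530. FANCI and FANCD2 together made up 52.7%, 55.2%, 57.5% and 53.2% of the sum.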
